A study of Homo sapiens with 8 samples.

Results

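LNCaP and PC3 cells that both carried activated Notch1 were compared with each other, gene by gene, on 4 of the 8 arrays of the series. The pair titled for LNCaP with overexpressed Notch1 and the pair titled for PC3 with overexpressed Notch1 were chosen by title alone, and every probe set other than the Affymetrix controls was kept, 12558 in all. LNCaP is a prostate cancer line, grown out from a metastasis in a lymph node, that answers to androgen, and PC3 is a line from a bone metastasis that grows without it. Activated Notch1 is the part of the receptor that signals without ligand. The other 4 arrays hold the same 2 lines with green fluorescent protein (GFP), and serve as the background against which a line difference with Notch1 is read. How the constructs were delivered for the arrays, and for how long, is not given in the sources used here. Each group had 2 arrays (n = 2), made as duplicates of a sample, so that p-values measure only the spread between arrays, which may be technical.

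Notch signals pass from a cut receptor to the nucleus, where its intracellular part joins the DNA binding protein RBPJ and a Mastermind cofactor and switches on targets such as HES1. In the prostate, luminal cells secrete proteins under control of the androgen receptor, whereas basal cells carry other keratins and adhesion proteins. Which genes set the lines apart once both carry the same active receptor is the question of this comparison.

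Values are log2 expression as deposited, and a difference is LNCaP minus PC3, so that a positive value stands for a higher level in LNCaP. The 2 arrays of a line correlated at r = 0.9965 (LNCaP Notch1) and 0.9975 (PC3 Notch1) across probe sets, against 0.8903 to 0.8925 between lines. Array medians were 6.36 and 6.33 in LNCaP Notch1 but 5.95 and 5.98 in PC3 Notch1, and no source states whether the lines were normalized together. Of the probe sets on these arrays, 31.9% in LNCaP and 37.4% to 37.6% in PC3 lay under log2 5, a range near background for arrays of this kind. As a measure of RNA quality, the GAPDH control signal at the 3′ end exceeded that at the 5′ end by 0.40 and 0.36 in LNCaP Notch1, with values of -0.04 and -0.08 in PC3 Notch1. For the ACTB control these values were 0.38 and 0.52 in LNCaP Notch1 and 0.28 and 0.39 in PC3 Notch1, so that the lines overlapped. The part of RNA quality in the line differences was not tested.

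As deposited, 6561 probe sets (52.2%) were higher in LNCaP Notch1 and 2328 (18.5%) lower at an adjusted p under 0.05 in limma. After each array was centred on its median these counts were 3336 (26.6%) and 3671 (29.2%). The median difference of all probe sets moved from 0.37 to -0.0057 with centring, so the split between higher and lower calls rests on the scaling. A gene is therefore called higher or lower below only where it passed the test with the same sign under both scalings. With 1 probe set a gene, the one with the highest mean, 2162 of 8226 genes (26.3%) were higher in LNCaP Notch1 and 1657 (20.1%) were lower. The counts of gene list members given below are read against these shares of all genes, and a list near them does not stand apart. The line difference also varied with level: as deposited its median was 0.58 for the 2614 probe sets with a mean from log2 3 to under 5, and -0.09 for the 1251 from log2 9 to under 11.

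**Figure D1:**
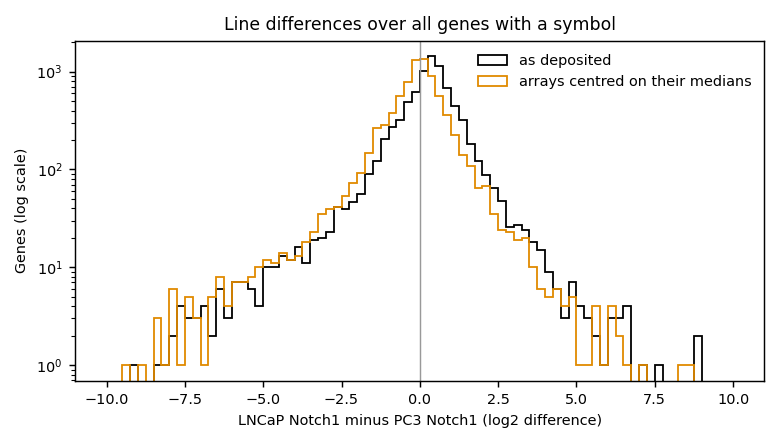
Number of genes (y axis, log scale) by LNCaP Notch1 minus PC3 Notch1 difference (x axis, log2, bins of 0.25) for 8210 genes, as deposited and with the arrays centred on their medians. The centred curve lies to the left of the deposited one, while both tails reach differences beyond 7.5.

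With GFP the lines had been compared on separate arrays, and there 2193 genes (26.7%) were higher and 1628 (19.8%) lower in LNCaP. Of the 2162 genes higher in LNCaP with Notch1, 1657 (76.6%) were also called higher with GFP, which is 75.6% of those called with GFP. Of the 1657 lower ones, 1240 (74.8%) were lower with GFP as well, or 76.2% of that set. A call in one pair of groups and not in the other does not show a difference, so the Notch1 line difference minus the GFP line difference, here named the interaction, was tested itself. The interaction was positive in 384 genes (4.67%) and negative in 686 (8.34%). Among the 491 genes called higher only with Notch1, 85 passed this test, and among the 397 called lower only with Notch1, 148 did. In 34 genes the lines exchanged order, 14 to higher in LNCaP and 20 to lower.

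**Figure D2:**
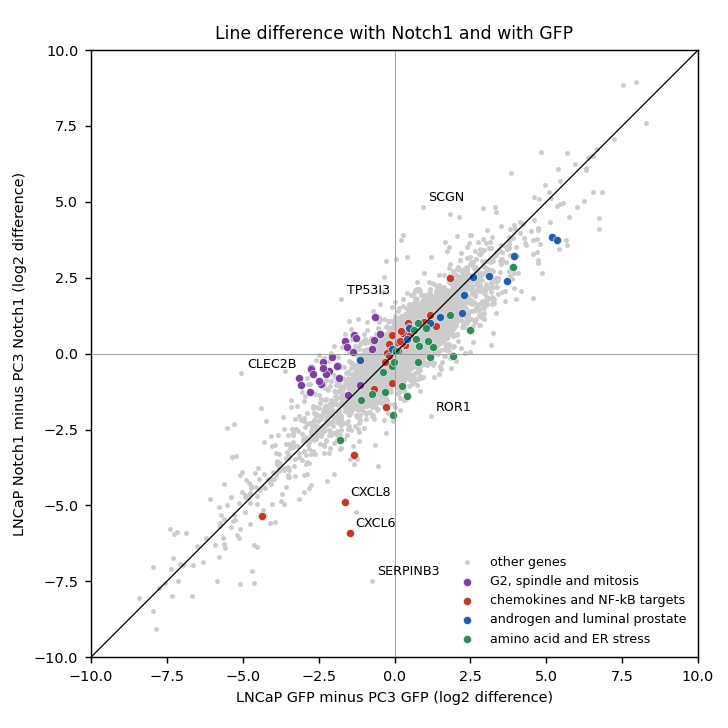
LNCaP minus PC3 difference with activated Notch1 (y axis, log2) against the same with GFP (x axis, log2) for 8210 genes, each point a gene and the diagonal marking equal differences. Genes of mitosis lie above the diagonal, and the chemokines CXCL6 and CXCL8 lie well below it, at -5.90 and -4.88 with Notch1 against -1.47 and -1.62 with GFP.

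Notch output itself was read from HES1, a transcriptional repressor and the best known Notch target. HES1 read 10.51 and 10.61 on the PC3 Notch1 arrays and 11.22 and 11.23 on the LNCaP Notch1 arrays, against group means of 8.00 and 8.44 with GFP. The arrays of the lines did not overlap, and the difference of 0.67 (SE 0.12, adjusted p = 0.000449) fell to 0.29 with adjusted p = 0.0534 after centring, so HES1 was not called different between the lines. The bases just before the HES1 start, shown because Notch output was read from this gene, are given 5′ to 3′ from RefSeq (GRCh38.p14, plus strand, chr3:194135998-194136147). The letters TGGGAA, found in an RBPJ site that the study predicted for SMAD3, are in capitals, and the capitals do not mark known sites of HES1.
HES1: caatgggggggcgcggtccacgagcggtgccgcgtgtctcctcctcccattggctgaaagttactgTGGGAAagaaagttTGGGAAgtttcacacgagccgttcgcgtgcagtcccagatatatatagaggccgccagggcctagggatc
These letters occurred 2 times here, and on either strand in the 250 bases before the start of 24.6% of 27305 genes with a listed promoter. A match of letters is a description and not a site.

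Genes that build the Notch pathway were for the most part not called. Of 16 measured receptors, ligands and cofactors, 5 were called higher in LNCaP Notch1, near the 26.3% of all genes, and 1 lower, with a median difference of 0.53 against 0.35 over all genes. NOTCH3, a receptor of the family that is itself a Notch target, read 8.59 and 8.30 in LNCaP and 4.65 and 4.70 in PC3, a difference of 3.77 (SE 0.14, adjusted p = 3.86e-09) that was 2.90 with GFP. RBPJ, the DNA binding partner of the active receptor, read 7.60 and 7.36 against 6.04 and 5.997, a difference of 1.46 (SE 0.14, adjusted p = 5.72e-06). MAML1, a Mastermind coactivator, and ADAM10, a protease that cuts the receptor, were higher by 1.63 and 1.69 (adjusted p = 7.22e-07 and 5.77e-07). The other 2 ADAM10 probe sets gave 1.38 and 0.14, the latter not called.

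The list of Notch target genes was split, with 5 of 11 measured members higher in LNCaP Notch1 and 4 lower. CCND1, cyclin D1 of the G1 phase, was alike in the lines with GFP (0.27, adjusted p = 0.058) and stood 1.79 higher in LNCaP with Notch1 (SE 0.11, adjusted p = 1.91e-07). Its arrays read 11.73 and 11.63 in LNCaP and 9.88 and 9.90 in PC3, and the other 2 CCND1 probe sets gave 1.47 and 1.65. CDKN1A, the cell cycle inhibitor p21, kept its sign with a smaller size. The line difference of CDKN1A was 4.72 with GFP and 3.08 with Notch1 (SE 0.13, adjusted p = 7.72e-09), from 8.28 and 8.00 in PC3 and 11.29 and 11.16 in LNCaP. SOX9, a transcription factor of progenitor cells, was lower in LNCaP, with a difference of -2.00 (SE 0.12, adjusted p = 1.51e-07).

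Genes known to mark the lines were mostly called. Of 7 measured LNCaP identity genes 5 were higher in LNCaP Notch1 and 0 lower, with a median difference of 1.33 against 2.23 with GFP. Their interaction was negative in 4, against 8.34% of all genes. Of 15 measured PC3 identity genes 9 were lower in LNCaP Notch1 and 2 higher, the latter IL1A and TGFB2, both under log2 5 in either line. AXL, EGFR, KRT7 and TGM2 were not called by their brightest probe sets. Other probe sets were called lower for AXL, at -2.49 and -1.77, and for EGFR, at -0.92. Those of KRT7 and TGM2, at -0.45 and 0.07, were not called. KLK2, a secreted kallikrein protease driven by the androgen receptor, read 8.33 and 7.94 in LNCaP Notch1 and 4.32 and 4.28 in PC3 Notch1, a difference of 3.83 (SE 0.20, adjusted p = 4.94e-08). KLK3, the kallikrein known as prostate specific antigen, read 8.54 and 8.50 against 7.18 and 7.47, a difference of 1.20 (SE 0.15, adjusted p = 4.15e-05). Its other 5 probe sets ranged from 0.27 to 1.80, and 2 of them were not called. ACP3, prostatic acid phosphatase, TMPRSS2, a serine protease regulated by androgen, and STEAP1, a metalloreductase of the prostate cell surface, were higher by 3.76, 3.22 and 1.33. HOXB13, a prostate lineage factor, and the transcript PART1 did not pass under both scalings, with differences of 0.47 and 0.01. Other PART1 probe sets gave 0.80 and 3.74, both called.

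The androgen and luminal list held 11 of 14 measured members higher in LNCaP Notch1 and 0 lower, with a median of 1.63. Its median was 2.26 with GFP, and the interaction was called in 6 members, negative in 5, against 8.34% negative over all genes. KLK2, ACP3, TMPRSS2 and STEAP1 are 4 of these 5: their line differences were smaller with Notch1 than with GFP, where they were 5.20, 5.34, 3.94 and 2.23. GATA2, a pioneer factor for the androgen receptor, was higher by 2.55 (SE 0.16, adjusted p = 1.95e-07), and its other 3 probe sets by 1.67 to 6.31. The promoters of both kallikreins are shown because KLK2 and KLK3 stood higher in LNCaP together and share a known androgen response element. The bases are from RefSeq (GRCh38.p14, both on the plus strand, KLK3 chr19:50854715-50854914 and KLK2 chr19:50873239-50873438), with the letters GAACAGCAA of that element in capitals.
KLK3: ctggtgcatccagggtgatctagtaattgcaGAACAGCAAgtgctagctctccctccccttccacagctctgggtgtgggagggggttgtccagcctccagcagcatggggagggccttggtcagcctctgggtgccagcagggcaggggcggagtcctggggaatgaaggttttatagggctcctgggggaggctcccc
KLK2: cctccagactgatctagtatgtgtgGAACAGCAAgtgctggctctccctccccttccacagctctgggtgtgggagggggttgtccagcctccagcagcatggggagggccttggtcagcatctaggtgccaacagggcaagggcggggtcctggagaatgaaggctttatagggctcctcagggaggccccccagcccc
On either strand these letters were found before the start of 0.256% of all genes with a listed promoter.

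The genes furthest to the LNCaP side included DSP, CTNNA1, CDH1 and CLDN7 of cell junctions, beside genes of other roles. Genes were ranked after values under log2 5 were raised to 5, and the 12 genes most on the LNCaP side had, as deposited, differences of 4.47 to 8.94 (SE 0.11 to 0.20, highest adjusted p = 1.52e-08). DSP, desmoplakin, which ties desmosomes to keratin filaments, read 10.68 and 10.96 in LNCaP Notch1 and 1.77 and 2.00 in PC3 Notch1. CTNNA1, alpha-catenin, which links cadherins to actin, read 10.91 and 10.58 against 4.18 and 4.40, and all 6 of its probe sets were called, at 3.05 to 6.65. CDH1, E-cadherin, and CLDN7, a claudin of tight junctions, were higher by 4.97 and 4.83, although a further CDH1 probe set gave 0.56 and was not called.

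FN1, fibronectin of the matrix, was the largest of the 12 after raising low values, at 99.7-fold, with 12.40 and 12.38 in LNCaP and 5.76 and 5.73 in PC3. Its 3 probe sets gave 6.30 to 7.26, and the gene belongs to the mesenchymal list rather than the epithelial one. NTS, the neuropeptide neurotensin, and DDC, the decarboxylase that makes dopamine and serotonin, read 10.53 and 10.69, and 10.42 and 10.37, in LNCaP Notch1, whereas both lay under log2 3 in PC3 Notch1. SCGN, the calcium binding protein secretagogin, was higher by 4.84, and ACTA2, smooth muscle actin, by 4.82. ENC1, an actin-binding Kelch protein, TAF7, a subunit of the general factor TFIID, and PLK2, a p53-regulated kinase, were higher by 4.50, 6.26 and 4.47.

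On the PC3 side, the 12 leading genes had differences of -9.08 to -5.90 (SE 0.11 to 0.17, highest adjusted p = 3.47e-10), or 59.8- to 201.0-fold after raising low values. LGALS3 and LGALS1, galectins that bind sugars on cell surface proteins, had differences of -9.08 and -8.06. LGALS1 read 12.54 and 12.61 in PC3 Notch1 and 4.62 and 4.41 in LNCaP Notch1. FGFBP1, a carrier that frees fibroblast growth factors from the matrix, read 12.72 and 12.58 against 4.27 and 4.08. TMSB4X, the actin-sequestering thymosin beta 4, read 13.51 and 13.47 against 5.88 and 5.96, and its line difference of -7.57 was the same with GFP to 2 decimals.

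TIMP1, an inhibitor of metalloproteinases, and RGS4, a brake on G protein signals, had differences of -7.49 and -7.15, with a further RGS4 probe set at -5.64. SERPINB1, an inhibitor of neutrophil proteases, had a difference of -7.55, and HTRA1, a secreted serine protease, of -6.06. KRT19, a keratin of simple epithelia, read 11.57 and 11.37 in PC3 Notch1 and 4.70 and 4.34 in LNCaP Notch1, against the direction of most of the luminal list it belongs to. ANXA2, an annexin that binds membranes and plasminogen activators, S100A2, an S100 protein found in basal cells, and MYOF, a membrane repair protein, had differences of -6.94, -6.08 and -5.90.

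**Figure D3:**
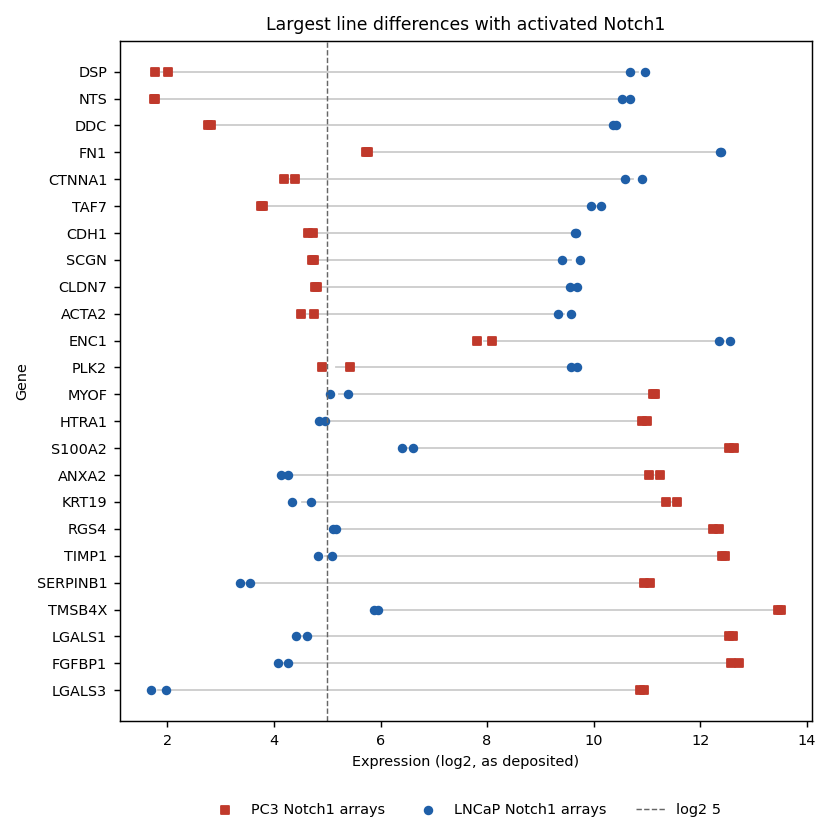
Log2 expression (x axis) of the 24 genes ranked furthest apart between the lines once values under log2 5 were raised to 5 (y axis), plotted as deposited, with a point for each of the 2 PC3 Notch1 and 2 LNCaP Notch1 arrays and a dashed line at log2 5. For each gene the arrays of a line lie close together and the lines do not overlap, as for FN1 with 5.76 and 5.73 against 12.40 and 12.38. The genes were chosen for large called differences on these same arrays, so this separation follows from the choice.

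Among caveolae, annexins, galectins and CD44, 12 of 17 measured members were lower in LNCaP Notch1 and 2 higher, with a median of -2.49. With GFP 12 were lower and 2 higher, with a median of -4.04. CAV1, the coat protein of caveolae, read 9.61 and 9.72 in PC3 Notch1 and 1.68 and 1.71 in LNCaP Notch1. For its partner CAV2 a second probe set gave 0.09 where the first gave -7.97, and the 7 CD44 probe sets, which report a hyaluronan receptor with many splice forms, ranged from -6.95 to -0.06. ANXA1, an annexin of anti-inflammatory action, read 10.37 and 10.48 against 8.00 and 7.95, a difference of -2.45 that was -5.53 with GFP.

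Of the 16 basal and squamous genes 9 were lower in LNCaP Notch1 and 1 higher, and the same counts were called with GFP. Those lower with Notch1 included PI3, a protease inhibitor of skin, at -4.19 and the integrin ITGA6 at -2.96. Its 3 further probe sets gave -4.34, -4.00 and 0.05. The luminal keratin and junction list went the other way, with 14 of 22 higher and 5 lower. In the mesenchymal list 8 of 21 were higher and 8 lower: VIM, vimentin, CDH11, a mesenchymal cadherin, and COL1A2, a chain of collagen I, lay on the PC3 side at -2.76, -5.73 and -4.00, whereas FN1 and ACTA2 lay on the LNCaP side. Of the other 3 COL1A2 probe sets 2 were called, at -3.86 and -1.97, and 1 was not, at 0.13.

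Of 22 genes of the urokinase system and metalloproteinases 7 were higher and 7 lower, with a median of 0.35 that equals that of all genes to 2 decimals. PLAU, urokinase, and PLAT, tissue plasminogen activator, had differences of -6.27 and -4.01, and ADAM8, a membrane protease, one of 3.04. Among integrins and laminins, 5 of 15 were higher and 4 lower, led by LAMB1, a laminin chain, at -6.97 (8.83 and 9.07 in PC3, 1.85 and 2.11 in LNCaP). Integrin ITGA3 followed at -2.68, and ITGA1, a collagen receptor, at 3.31. With values under log2 5 raised to 5, the integrins and laminins called higher differed by at most 1.51. Of 15 IGF binding and CCN proteins, 5 were lower, among them IGFBP6, IGFBP4 and CCN2, connective tissue growth factor, at -6.06, -4.79 and -6.40, while 3 were higher, led by IGFBP2 at 4.14. Receptor tyrosine kinases and their ligands counted 10 of 27 lower, with EPHA2 at -2.49 and the ligand HBEGF at -2.69, and 5 higher, with ERBB2 at 1.84.

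Among chemokines, CXCL6, CXCL8 and CXCL2 lay on the PC3 side. CXCL6 and CXCL8, which attract neutrophils, read 8.75 and 8.70, and 10.65 and 10.86, in PC3 Notch1, and only 2.80 and 2.85, and 5.84 and 5.92, in LNCaP Notch1. The differences were -5.90 (SE 0.18, adjusted p = 8.42e-10) and -4.88 (SE 0.13, adjusted p = 2.50e-10), and a second CXCL8 probe set gave -5.54. CXCL2, of the same family, read 5.95 and 5.62 against 2.44 and 2.42, a difference of -3.36 (SE 0.13, adjusted p = 5.60e-09). The list of chemokines and NF-kB targets as a whole was even, with 7 of 29 measured members lower in LNCaP Notch1, 8 higher and a median of 0.28. The interaction was called in 5 members of it, all negative, against 8.34% negative over all genes. Its median over the list lay 0.0007 above that of all genes, so the list as a whole did not shift. IER3, a stress-induced NF-kB target, had a difference of -5.34.

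The promoters of CXCL8, CXCL6 and CXCL2 are printed because the 3 genes lay on the PC3 side together and hold the same run of letters. GGAATTTCC, a form of the NF-kB element, is in capitals, and so is TGACTCA, the AP-1 element, in CXCL8 (RefSeq, GRCh38.p14, plus strand for CXCL8 at chr4:73740419-73740568 and CXCL6 at chr4:73836528-73836677, minus strand for CXCL2 at chr4:74099196-74099315).
CXCL8: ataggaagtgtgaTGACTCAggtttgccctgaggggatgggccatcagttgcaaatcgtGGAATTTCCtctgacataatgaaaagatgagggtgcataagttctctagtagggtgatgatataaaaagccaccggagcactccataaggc
CXCL6: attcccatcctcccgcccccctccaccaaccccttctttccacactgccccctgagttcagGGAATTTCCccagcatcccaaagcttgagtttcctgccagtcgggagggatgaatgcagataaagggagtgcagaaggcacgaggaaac
CXCL2: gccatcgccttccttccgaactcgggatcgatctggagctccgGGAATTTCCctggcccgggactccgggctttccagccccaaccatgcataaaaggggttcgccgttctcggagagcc
On either strand GGAATTTCC stood in the 250 bases before the start of 11 of 25 listed chemokine and NF-kB genes, a list made of known NF-kB targets, and of 0.502% of all genes with a promoter, and TGACTCA in those of 5.19%. The same letters were present for CXCL1 and CXCL5, named here after their values were seen, whose differences were 1.28 (called higher, under log2 5 in both lines) and 0.63 (not called). CXCL3, CXCL10, CXCL11, NFKBIA, NFKB1 and ICAM1 held them too, and their differences are not given here. A link between these letters and the direction of the line difference was not tested.

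Genes of the cell cycle had the largest median interaction of the 36 gene lists, 1.58 for those of G2, spindle and mitosis. With GFP, 27 of 28 measured genes of G2, spindle and mitosis were lower in LNCaP, with a median of -1.88, whereas with Notch1 14 were lower and 1 higher, with a median of -0.44. The interaction was positive in 23 of the 28 and negative in 0, against 4.67% positive over all genes. UBE2C, which marks mitotic proteins for destruction, read 11.33 and 11.23 in PC3 Notch1 and 10.34 and 10.14 in LNCaP Notch1, a difference of -1.04 (SE 0.13, adjusted p = 4.39e-05) that was -3.07 with GFP. AURKB, the aurora kinase of the chromosomal passenger complex, had a difference of -1.28 with Notch1 and -2.80 with GFP. CDC25B, a phosphatase that activates CDK1, had -1.35 and -1.55, and its interaction was not called (0.20, adjusted p = 0.479). CENPE, a kinetochore motor, was the member called higher in LNCaP Notch1 at 1.22, from 4.17 and 3.88 in PC3, under log2 5, to 5.29 and 5.20.

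DNA replication genes moved alike: 9 of 29 were lower in LNCaP Notch1 and 3 higher, against 18 lower and 0 higher with GFP, and the interaction was positive in 16. TK1, a thymidine kinase, and POLE2, a polymerase subunit, had differences of -1.01 and -1.95, while MCM4, a subunit of the replicative helicase, and GINS1, of the GINS complex, had 1.09 and 2.00. Among the promoters of 23 mitosis genes with an entry, CCAAT was found on either strand in 20 (87.0%) and TTTGAA, the core of the cell cycle homology region, in 10 (43.5%), against 37.0% and 16.1% of all genes. Neither was particular to that list. CCAAT was found in 79.2% of amino acid and ER stress genes and 78.9% of sterol and fatty acid genes. TTTGAA was found in 47.8% of TGF-beta and SMAD genes. The G1 list leaned to LNCaP, with 10 of 23 higher and 4 lower, led by CCNE1, cyclin E1, at 3.25 and CCND2, cyclin D2, at 3.09. A second CCND2 probe set gave 3.10 with Notch1 and 4.20 with GFP, so that its interaction had the opposite sign to that of the first.

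Targets of p53, a tumor suppressor that LNCaP retains and PC3 is known to lack, gave the highest median of the lists, 1.81, with 13 of 16 higher in LNCaP Notch1 and 1 lower. With GFP 11 of the 16 were higher and 1 lower, with a median of 1.56. The interaction was positive in 3 and negative in 3. TP53TG1, a p53-induced transcript, read 9.30 and 9.18 in LNCaP Notch1 and 5.50 and 5.64 in PC3 Notch1 (3.67, SE 0.14, adjusted p = 3.56e-09). TP53I3, an oxidoreductase induced by p53, differed in sign between the comparisons, at -1.76 with GFP and 1.80 with Notch1. Of apoptosis genes 8 of 27 were higher and 6 lower, near the 26.3% and 20.1% of all genes. TNFSF10, the death ligand TRAIL, read 6.49 and 6.46 in LNCaP Notch1 and 2.34 and 2.80 in PC3 Notch1, against a difference of 0.27 with GFP (adjusted p = 0.385). CFLAR, an inhibitor of caspase 8, had a difference of -4.49, although another CFLAR probe set gave 0.42, not called. With values under log2 5 raised to 5, the apoptosis genes called lower lay between -2.34 and -0.37.

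Genes of hypoxia and glycolysis were called lower in LNCaP Notch1 more often than the 20.1% of all genes. With GFP 22 of the 29 measured genes were lower and 1 higher, with a median of -0.85. Of 29 HIF and glycolysis genes 19 were lower in LNCaP Notch1 and 1 higher, with a median of -0.56 against 0.35 over all genes. ENO2, a neuronal enolase, ADM, the peptide adrenomedullin, NDRG1, a stress gene, and HK2, hexokinase 2, had differences of -4.39, -4.37, -3.53 and -2.25. EPAS1, the factor HIF-2alpha, did not pass as deposited (-0.09, adjusted p = 0.555 in limma) and so was not called. It was lower after centring (-0.47, adjusted p = 0.0127) and after quantile normalization (-0.39, adjusted p = 0.0302). The second EPAS1 probe set had the opposite sign, at 0.70 as deposited (adjusted p = 0.00767), and was not called under both scalings.

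The amino acid and ER stress list had 9 of 24 lower and 5 higher with Notch1, but 4 lower and 12 higher with GFP, and the interaction was negative in 13 and positive in 0, against 8.34% negative over all genes. CEBPB, a stress-responsive transcription factor, read 10.64 and 10.71 in PC3 Notch1 and 8.77 and 8.52 in LNCaP Notch1, and its difference of -2.03 compared with -0.06 for GFP (adjusted p = 0.730). SLC7A5 and SLC1A5, amino acid carriers, had -2.84 and -1.53, and CBS, which makes cystathionine, 2.86. Sterol and fatty acid genes followed the same pattern, with 8 of 18 lower and 2 higher against 2 lower and 5 higher with GFP, and a negative interaction in 9. SCD, a desaturase, and SQLE, squalene epoxidase, had differences of -2.06 and -0.89.

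Among steroid and xenobiotic enzymes, 11 of 24 were lower in LNCaP Notch1 and 9 higher. CYP1B1, a cytochrome P450 that acts on estrogens, read 6.81 and 7.34 in PC3 Notch1 and 1.85 and 1.86 in LNCaP Notch1, a difference of -5.22 that was -1.26 with GFP. GSTP1, a glutathione transferase, and ALDH1A3, which makes retinoic acid, had differences of -3.37 and -3.84. UGT2B17, which inactivates androgens by glucuronidation, was higher in LNCaP by 3.45, and by 5.41 with GFP. With values under log2 5 raised to 5, the members of this list called higher with Notch1 differed by at most 1.92. Polyamine and ornithine enzymes counted 6 of 14 lower and 4 higher, with OAT, ornithine aminotransferase, at -2.32 with Notch1 and -5.30 with GFP.

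Interferon response genes were lower in LNCaP Notch1 in 12 of 26 cases and higher in 3, against 14 lower and 2 higher with GFP. IFI16, a DNA sensor, ISG20, a ribonuclease, and ISG15, a ubiquitin-like modifier, had differences of -5.45, -2.83 and -2.58. With values under log2 5 raised to 5, the members called lower lay between -2.83 and -0.11, so much of the IFI16 difference lay under log2 5. Antigen processing followed with 8 of 14 lower and 3 higher. B2M, the light chain of class I molecules, read 12.84 and 12.77 in PC3 and 11.73 and 11.40 in LNCaP (-1.24, SE 0.15, adjusted p = 3.23e-05), whereas the peptide transporter TAP1 was 1.12 higher in LNCaP.

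In the TGF-beta and SMAD list 9 of 26 were higher and 6 lower, against 26.3% and 20.1% of all genes. SMAD3, which carries TGF-beta signals, read 9.07 and 8.69 in PC3 Notch1 and 7.47 and 7.24 in LNCaP Notch1 (-1.52, SE 0.17, adjusted p = 1.70e-05), and the other 3 probe sets, all called, gave -1.34 to -0.35. ID3, an inhibitor of basic helix-loop-helix factors, and SMAD7, a SMAD inhibitor, were higher by 3.55 and 3.47, and FST, the activin binder follistatin, had -3.90. S100 proteins counted 5 of 13 lower and 2 higher, with S100A10 at -4.66. Serpins and related inhibitors counted 7 of 17 lower and 2 higher, SLPI at -4.01 among the former, and secreted peptides and mucins 4 of 22 lower and 3 higher, with the trefoil peptide TFF2 at -2.60.

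Neuroendocrine markers were divided, 5 of 15 higher and 4 lower: besides NTS, DDC and SCGN on the LNCaP side, UCHL1, a neuronal ubiquitin hydrolase, read 11.51 and 11.44 in PC3 and 6.10 and 5.72 in LNCaP. Markers of other cell types were measured as well, and 9 of 16 leukocyte genes in PC3 Notch1 and 6 in LNCaP Notch1 had means under log2 5. The highest were CD68, a macrophage protein, at 7.89 in PC3 Notch1 and NKG7, a granule protein of killer cells, at 7.95 in LNCaP Notch1, and array means of the list were 4.88 to 5.00 and 5.52 to 5.61. For the 14 stromal and endothelial markers 7 lay under log2 5 in each group and COL1A1, a collagen chain, was highest at 8.30 in PC3 and 8.26 in LNCaP, with array means of 4.78 to 4.84 and 5.33 to 5.35, and LUM, the matrix protein lumican, read 6.58 on both LNCaP arrays and 0.84 and 0.92 in PC3. The median differences of these lists were 0.52 and 0.46 against 0.35 for all genes, with 4 and 5 members called higher and 1 and 2 called lower, and their part in the results was not tested. Ribosomal proteins, a broad reference group, were called higher in 2 of 19 cases and lower in 1, with a median of 0.28.

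**Figure D4:**
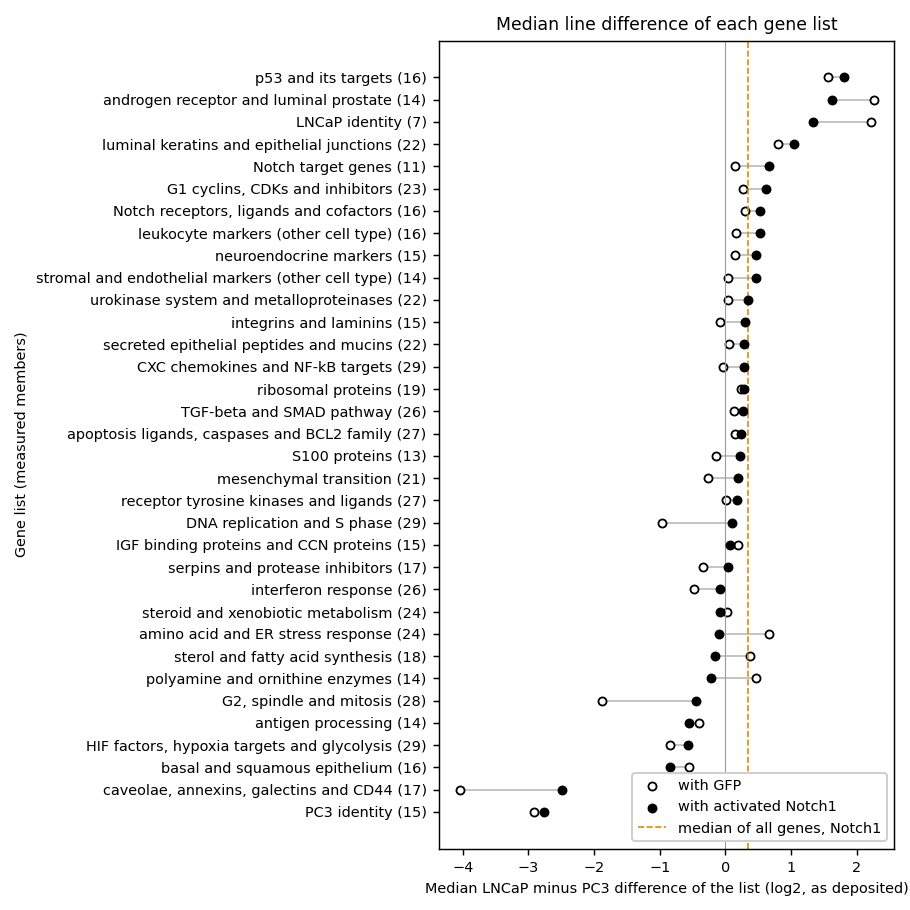
Median LNCaP minus PC3 difference (x axis, log2 as deposited) of each gene list (y axis, with its number of measured members), filled points for activated Notch1 and open points for GFP, the dashed line marking the Notch1 median of all genes at 0.35. The list of G2, spindle and mitosis lay at -0.44 with Notch1 against -1.88 with GFP, and that of amino acid and ER stress at -0.09 against 0.66.

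Ranked after low values were raised, the genes with the largest interaction among those called in both tests formed 8 on either side. In 7 of the 8 genes with the most negative interaction, the PC3 mean was higher with Notch1 than with GFP. SERPINB3, a squamous cell protease inhibitor, read 8.57 and 8.99 in PC3 Notch1 and 1.17 and 1.43 in LNCaP Notch1, below log2 5, a difference of -7.48 that was -0.75 with GFP. ROR1, a receptor of the WNT5A ligand, changed sides, from 1.19 with GFP to -2.07 with Notch1 (8.79 and 8.77 in PC3, 6.70 and 6.71 in LNCaP). SERPINB1, RGS4 and TCN1, a vitamin B12 carrier, moved from -4.64, -4.69 and -5.08 to -7.55, -7.15 and -7.58. PRUNE2, a BCH domain protein, was the exception, since it was lower in LNCaP with Notch1 than with GFP, at 6.62 against 9.50, and its line difference was 4.09 against 6.73.

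In the 8 genes with the most positive interaction, the LNCaP mean was higher with Notch1 than with GFP. CLEC2B, a lectin that activates natural killer cells, read 8.31 and 8.70 in LNCaP Notch1 and 9.19 and 9.13 in PC3 Notch1, which left a difference of -0.65 (SE 0.14, adjusted p = 0.00187) where GFP had -5.04. SCGN, SCGB1A1, a secretoglobin of airway secretory cells, CITED1, a transcriptional coregulator, and AGT, angiotensinogen, had differences of 4.84, 3.75, 3.05 and 3.11 with Notch1, against 0.93, 0.20, -0.29 and 0.03 with GFP. IL13RA1, a receptor chain for interleukin 13, changed sides from -1.49 to 1.09, although its other probe set gave 0.31 and 0.06. For all 16 genes the interaction passed with an adjusted p of 7.82e-05 or less.

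**Figure D5:**
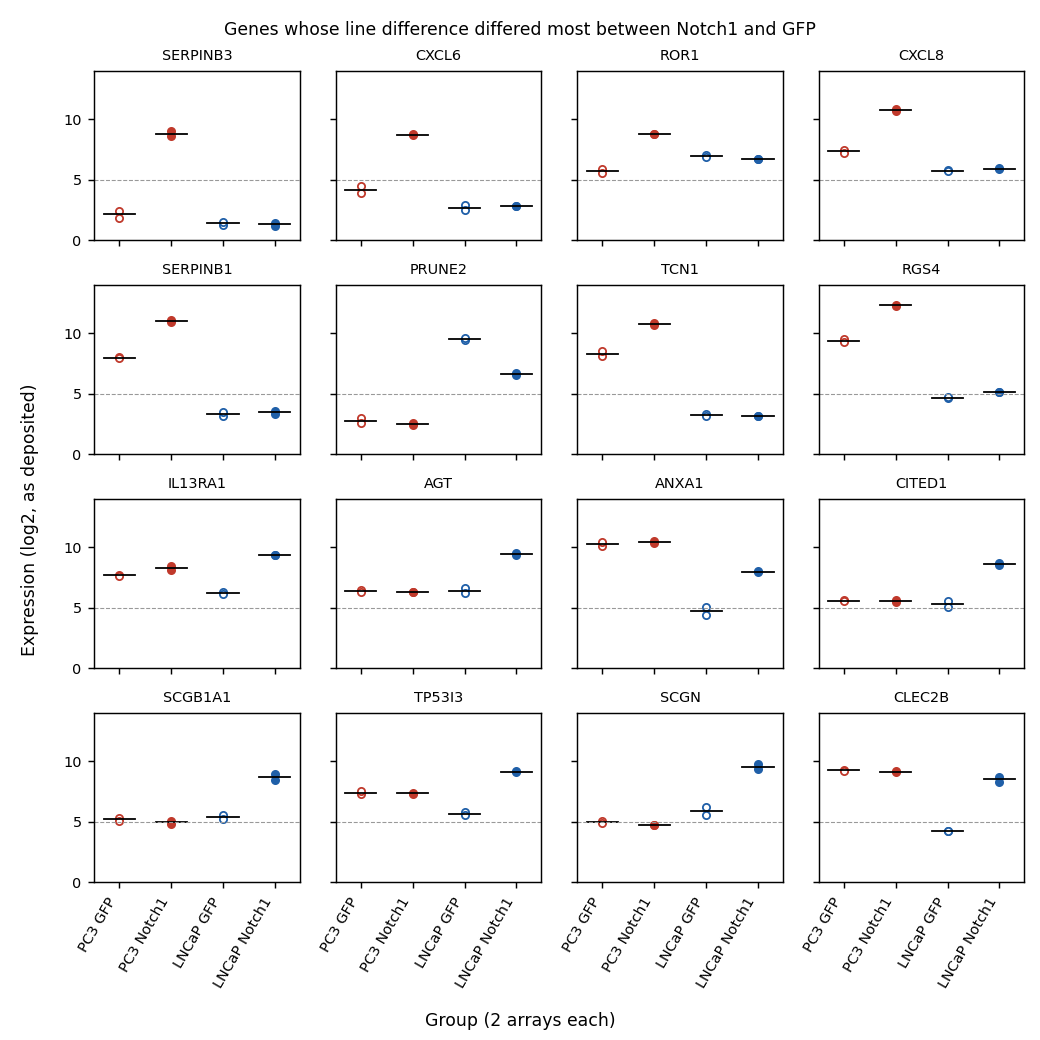
Log2 expression (y axis) on each of the 2 arrays of the 4 groups (x axis) for the 16 genes ranked highest by interaction once values under log2 5 were raised to 5, among genes called in both tests and plotted as deposited, with lines at group means and a dashed line at log2 5. SERPINB3 was high in PC3 Notch1 only (mean 8.78), and AGT in LNCaP Notch1 only (mean 9.42, against 6.31 to 6.41 elsewhere).

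Genes that the study named as tumor promoting or tumor suppressing were chosen by its authors in part on these samples, so their direction is no independent evidence. They had been picked as changed by Notch1 in either or both lines, and as differing with Notch1 level in tumors of at least 3 datasets. That choice was not made on the difference between the lines. Of 9 measured promoting genes 3 were higher in LNCaP Notch1 and 2 lower, with ATP1B1, a sodium pump subunit, at 2.19 and MAP3K8, a kinase of the NF-kB and ERK routes, at 2.83. MAP3K8 lay near or under log2 5 in both lines, and with low values raised its difference was 0.03 (adjusted p = 0.344). A second, less bright MAP3K8 probe set gave 2.26 as deposited and was called. All 4 suppressing genes were higher in LNCaP Notch1: CCNG2, cyclin G2, ENDOD1, an endonuclease domain protein, NEDD4L, a ubiquitin ligase, and SLC27A2, a fatty acid carrier, by 3.02, 1.33, 1.32 and 1.01. A second CCNG2 probe set gave 0.94 without a call. With low values raised the difference of SLC27A2 was 0.69 and no longer called (adjusted p = 0.0944). With GFP all 4 were called higher as well, with a median of 2.67 against 1.33 with Notch1. The interaction was negative in 1 and positive in 0.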

How the data were processed

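RNA of 8 samples was read on Affymetrix U95Av2 arrays. Per the study's methods, the authors made biotin-labelled cRNA from total RNA, applied RMA in R, and deposited log2 values, used as given. The versions of those tools, and whether the lines were normalized together, are not stated in any source read here. Of 12625 probe sets, 67 controls were left out. Of the rest, 10943 carry 1 gene symbol, 545 several and 1070 none. Where a gene had several probe sets, the one brightest on average over the 8 arrays stood for it.

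A group-means model over all 8 arrays was fitted with limma 3.58.1 in R 4.3.3 (4 residual and 6.37 prior degrees of freedom), tested on simulated data, with Benjamini-Hochberg adjustment over all 12558 probe sets. The contrasts were LNCaP minus PC3 with Notch1, the same with GFP, and their difference. Calls in the text need an adjusted p under 0.05 and the same sign as deposited and median-centred, a rule chosen after seeing the data. Tables and figures used Python 3.11.15, pandas 2.3.3 and matplotlib 3.10.9. The number of arrays limits the precision.

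Named genes were the 12 largest differences in each direction, the 8 largest interactions in each direction, up to 4 called members of each list, the line identity lists, and HES1, CDKN1A, SMAD3, EPAS1 and CXCL6. The members and the 36 lists were chosen with earlier results of these data known. NOTCH1 and HEY1 are not analysed here, and 16 genes were not drawn. Alternatives were centring, quantile normalization, a mean of at least log2 5, values raised to log2 5, the 4 arrays alone, a replicate block, averaging the probe sets per gene and leaving out each array.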

Additional observations from a re-analysis of the deposited data

Results flagged for a closer look

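The line difference with Notch1 minus that with GFP was called in 82 of the 157 named genes, and 51 of these also differed by 2-fold or more after values under log2 5 were raised to 5. Over all genes the interaction was called positive in 4.67% and negative in 8.34%. The named genes were picked in part for large or called differences, and 16 for a called interaction. Their count is therefore raised by the choice and is no estimate for genes at large. Values are log2 interactions as deposited, each from a test of the difference itself. The causes were not tested.

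Negative interactions, where the line difference lay further to the PC3 side with Notch1, came in several groups. The protease inhibitors SERPINB3, SERPINB1, PI3, TIMP1 and SLPI had -6.73, -2.91, -1.96, -1.65 and -1.04. The chemokines CXCL6 and CXCL8 had -4.42 and -3.26, and the secreted or surface proteins ROR1, TCN1, LGALS3, CAV2, HBEGF and CCN2 had -3.26, -2.49, -1.21, -1.30, -1.12 and -0.80. For the signal and transcription genes RGS4, CEBPB, CDKN1A and SOX9 the values were -2.46, -1.97, -1.64 and -1.04. The metabolic genes CYP1B1, UGT2B17, SQLE and the carrier SLC7A5 had -3.96, -1.96, -1.19 and -1.05. Among genes higher in LNCaP, PRUNE2, ENDOD1, ACP3, KLK2 and CLDN7 had -2.63, -2.03, -1.58, -1.37 and -1.19.

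Positive interactions included the immune and receptor genes CLEC2B, TNFSF10, IL13RA1 and TEK, at 4.39, 3.63, 2.57 and 1.13. The secreted or calcium binding proteins SCGN, SCGB1A1, ANXA1 and AGT had 3.91, 3.55, 3.08 and 3.07. TP53I3, CITED1 and the enzyme OAT had 3.56, 3.34 and 2.98. The cell cycle genes UBE2C, TK1, MCM4, GINS1, AURKB and CCND1 had 2.03, 1.85, 1.60, 1.60, 1.52 and 1.52. The cytoskeletal, matrix and adhesion genes ENC1, FN1, ACTA2, ITGA1 and DSP had 2.38, 1.81, 1.52, 1.12 and 0.99, and the secreted proteins IGFBP4, FST and PLAT had 1.29, 1.11 and 1.09.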

How the results depend on the processing

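Scaling, low values and single arrays each moved counts of probe sets. The count higher in LNCaP Notch1 went from 6561 to 3336 with centring, 3742 with quantile normalization, 3922 with a mean of at least log2 5 and 3621 with values raised to log2 5, and at 2-fold or more from 2187 to 1224, 1355, 1306 and 1276. The count lower went from 2328 to 3671 with centring, and at 2-fold from 1108 to 1692. With GFP, 5067 higher became 3323 centred, 3193 with the mean filter and 3054 raised, and 2319 lower became 3852 centred and 3599 quantile normalized. Calls with Notch1 alone went from 2690 to 1540 centred, 1596 quantile normalized, 1713 filtered and 1617 raised, calls of the same sign in both from 6063 to 4019 filtered and 3737 raised, and list members called higher from 305 to 182 centred and to 182 under both scalings. Raising values took the positive interactions from 815 to 512 (2-fold: 289 to 177) and the negative ones from 963 to 551 (487 to 247).

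Leaving out 1 array gave 5475 to 6816 higher and 2016 to 2410 lower with Notch1 (2-fold: 2148 to 2278 and 1057 to 1157), 4278 to 5014 and 1989 to 2294 with GFP, 5252 to 6181 of the same sign, 87 to 196 of opposite sign (136 with all arrays), and 1919 to 3513 with Notch1 alone. Positive interactions ranged from 400 to 1348 (2-fold: 260 to 346) and negative ones from 550 to 1316 (382 to 677). Positive interactions moved by over 1.5 times to 408 and 400 without PC3 Notch1 replicate 1 or 2, 415 and 495 without LNCaP Notch1 replicate 1 or 2, 470 without LNCaP GFP replicate 2 and 1348 without PC3 GFP replicate 2. Negative ones fell to 593, 550, 568 and 613 without PC3 Notch1 replicate 1 or 2, LNCaP Notch1 replicate 2 or LNCaP GFP replicate 2, and opposite signs to 88, 90 and 87 without PC3 Notch1 replicate 1 or 2 or LNCaP GFP replicate 2. The lone array left is assumed to vary like the other groups. Arrays share only a number, with correlations of same-numbered deviations of 0.124 to 0.545, and the replicate block gave 1445 positive and 1434 negative interactions.

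Of 2328 alternative values of the 157 named genes, 2284 kept their sign and call, 27 (16 genes, MAP3K8 and SLC27A2 among them with low values raised) lost the call, 7 (4 genes) gained one and 10 (4 genes) changed sign. The latter were AXL (-0.18 centred, -1.35 as the mean of its probe sets), EPAS1 (-0.2266 to 0.0376 over the left-out arrays, the latter without LNCaP Notch1 replicate 2, 0.30 as the mean of probe sets), TGM2 (-0.20 centred, -0.14 quantile normalized) and PART1 (-0.37 centred, -0.47 quantile normalized, -0.0079 without PC3 Notch1 replicate 2, and -0.1107 to 0.1308 over the left-out arrays, the former without LNCaP Notch1 replicate 2). Where a cause is not given by the setting itself, the cause was not tested. Values under log2 5 lie near background and limit the folds of low genes.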
